A study of Mus musculus with 12 samples.

Results

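Connexins and pannexins are the channel proteins through which brain cells exchange small molecules and ions with each other and with the space around them. The genes described here are the gap junction genes *Gja1*, *Gjb6*, *Gjb2*, *Gjc1* and *Gjd2* and the pannexin genes *Panx1* and *Panx2*. They were taken by gene symbol, as the glial and neuronal members of the family, and are 7 of the 55471 genes in the count table. *Gja1*, *Gjc1*, *Gjd2*, *Panx1* and *Panx2* had enough reads to be tested (5 of 7), and *Gjb6* and *Gjb2* did not.

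Connexin subunits form hemichannels, which dock between touching cells into gap junctions, whereas pannexins form channels in the membrane of a single cell. In the brain, connexin 43 (*Gja1*) and connexin 30 (*Gjb6*) are known as the astrocyte connexins, with connexin 26 (*Gjb2*) at a lower level in astrocytes and in leptomeningeal cells. Connexin 36 (*Gjd2*) forms electrical synapses between neurons, connexin 45 (*Gjc1*) is found in some neurons and in vascular cells, and *Panx1* and *Panx2* are both found in neurons, where *Panx1* is known as a release path for ATP.

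The libraries are total RNA from primary hippocampal neurons of wild-type mice (genotype WT), grown from late-gestation CD1 embryos of mixed-sex litters. Both groups received LNA gapmers, antisense oligonucleotides that direct RNase H to a target RNA, packed in lipid nanoparticles, on day 7 in vitro, and RNA was taken on day 10. The 6 control libraries had a gapmer without a known target, and the 6 *Neuid* KD libraries had a gapmer against the long noncoding RNA *Neuid*. Nothing in the sources used here says that the libraries of a group came from separate cultures or litters, so the p-values measure only the spread between these libraries, which may be technical. The question was whether lowering *Neuid* was followed by a change in these channel genes.

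The sequences upstream of the 3 astrocyte connexin genes are shown because *Gja1* was the member that changed most while *Gjb6* and *Gjb2* stayed near the detection limit. Each is the 250 bases before the transcription start in RefSeq (GRCm38.p6), written 5′ to 3′ on the strand of the gene, with capitals marking an AP-1 motif (TGACTCA) or a GC box (GGGCGG). The TATA box was also searched for, with TATAAA as its letters. All motifs were searched on both strands, and no marked motifs overlap.
Gja1: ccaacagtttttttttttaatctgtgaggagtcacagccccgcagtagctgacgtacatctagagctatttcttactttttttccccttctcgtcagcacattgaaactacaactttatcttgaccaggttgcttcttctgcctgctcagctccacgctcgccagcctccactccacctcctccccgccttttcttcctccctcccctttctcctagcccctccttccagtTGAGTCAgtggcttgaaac
Gjb6: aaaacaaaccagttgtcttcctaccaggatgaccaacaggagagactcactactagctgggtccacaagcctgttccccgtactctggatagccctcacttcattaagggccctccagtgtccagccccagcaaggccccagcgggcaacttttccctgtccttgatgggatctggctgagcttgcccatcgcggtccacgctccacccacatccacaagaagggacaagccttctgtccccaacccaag
Gjb2: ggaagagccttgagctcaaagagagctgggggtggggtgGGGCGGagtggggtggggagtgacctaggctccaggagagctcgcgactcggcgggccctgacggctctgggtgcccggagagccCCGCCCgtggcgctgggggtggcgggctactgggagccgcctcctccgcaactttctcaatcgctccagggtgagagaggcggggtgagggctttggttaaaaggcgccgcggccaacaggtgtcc

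The *Gja1* window lies at chr10:56377050-56377299 (plus strand). Its single motif, an AP-1 motif read on the opposite strand, begins 19 bases before the RefSeq start, and an AP-1 motif is present in 4.46% of the 32851 RefSeq promoters of the same length. GENCODE vM21 starts *Gja1* 30 bases further downstream than RefSeq. The *Gjb6* window, chr14:57133612-57133861 (minus strand), holds none of the 3 motifs. The *Gjb2* window, chr14:57104703-57104952 (minus strand), holds 2 GC boxes, beginning 211 and 126 bases before the start, and a GC box is present in 32.7% of all promoters. A TATA box was in 12.4% of them and in none of the 3 windows. The windows also differ in CpG content, with 18 CpG in that of *Gjb2* against 6 for *Gja1* and 5 for *Gjb6* (median of all promoters, 6). For *Gjd2* the window holds 33 CpG and 1 GC box, beginning 33 bases before the start, and for *Panx1* it holds 17 CpG and none of the 3 motifs. These matches describe the letters only. RefSeq promoters were matched for 5 of the 7 genes, and none for *Gjc1* and *Panx2*.

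Levels are given as CPM, the reads of a gene set against the total of its library, with libraries brought to a common scale by TMM (the trimmed mean of M-values, which corrects for a few genes taking many reads). Differences between groups are log2 fold changes of *Neuid* KD against control from edgeR's quasi-likelihood test, with the p adjusted by Benjamini-Hochberg over the 19578 genes tested; a gene passed when its adjusted p was under 0.05. The libraries held 11152556 to 30914714 reads on genes, and the shallowest was *Neuid* KD replicate 1. *Neuid* itself (*Gm10419*, ENSMUSG00000072769, chr5:108367769-108378239, plus strand) fell from 28.4 ± 2.03 to 8.05 ± 1.13 CPM (mean ± SD, n = 6 each), a log2 fold change of -1.81 (SE 0.0845, adjusted p = 1.32e-10), and its groups did not overlap. *Neuid* overlaps *Gm42517* on the opposite strand; whether the counting used strand is not given in the sources used here. Libraries also differed in background, taken as the summed CPM of 1778 olfactory, vomeronasal and bitter taste receptor genes. That reads on these genes are background was assumed and not tested. Their sum was 26.0 to 653 CPM over the control libraries and 26.9 to 604 CPM over the *Neuid* KD libraries. In 7 libraries (4 control, 3 *Neuid* KD) it was at or above 100 CPM. Markers of neurons summed to 6876 to 8077 CPM and those of astrocytes to 1982 to 2477 CPM in control libraries, so both were present in cultures labelled as neurons.

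*Gja1* was the only one of the 5 tested genes to pass, and it rose 4.82-fold. In bulk RNA, fewer cells of a type and less RNA per cell cannot be told apart, nor can more of either. Of all tested genes 8.72% passed, 6.31% as higher and 2.42% as lower in *Neuid* KD. *Gja1* also passed with a log2 fold change above 0.5, which 2.44% of tested genes did, while 0.792% passed with one below -0.5. *Gjc1* was higher and *Gjd2*, *Panx1* and *Panx2* were lower in the mean, none of these past the threshold; a negative log2 fold change was found in 55.6% of all tested genes.

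*Gja1* (ENSMUSG00000050953, chr10:56377330-56402513, plus strand), which encodes connexin 43, the main gap junction protein of astrocytes, had its lowest control library at 23.3 CPM, its median at 27.4 CPM and its highest at 31.0 CPM. In *Neuid* KD the lowest library was at 126.9 CPM, the median at 131.7 CPM and the highest at 143.1 CPM. The gap between the groups was thus wider than the whole range within either of them, and all 6 *Neuid* KD libraries were above all 6 control libraries, a pattern found in 4.13% of tested genes. No member was lower in every *Neuid* KD library than in every control library, as 1.57% of tested genes were. The log2 fold change was 2.27 (SE 0.0612, 95% interval 2.14 to 2.40, adjusted p = 2.97e-13). By p it ranked 2 of the 19578 tested genes, after *Igfbp2*, and by log2 fold change it ranked 7, after *Igfbp2*, *S100b*, *Rgcc*, *Pla2g7*, *Epas1* and *Apoe*.

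**Figure D1:**
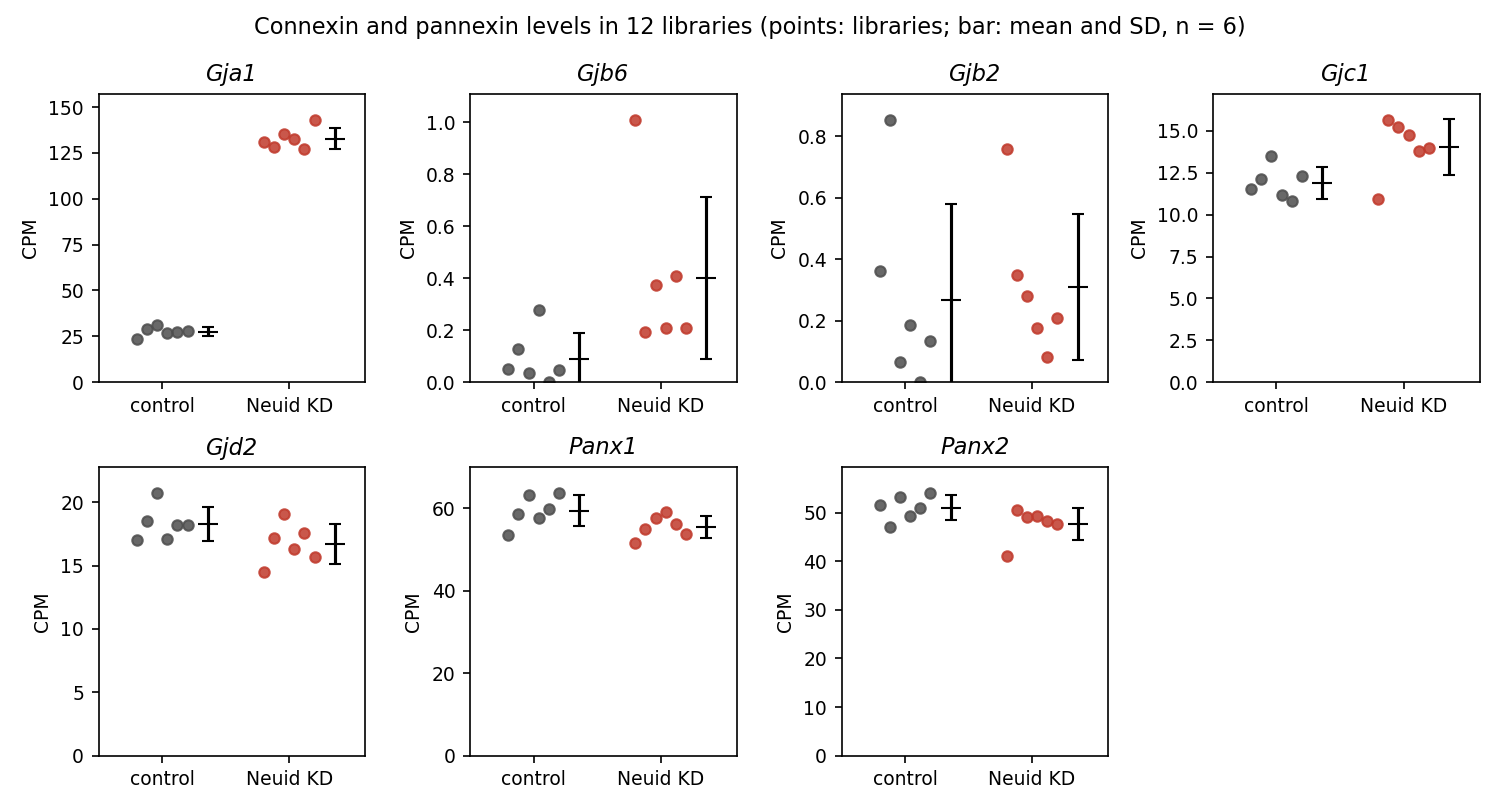
Level of each of the 7 genes (CPM, linear axes from 0, a different scale in each panel) in the 6 control (grey) and 6 *Neuid* KD (red) libraries, in the order of the replicate numbers; the cross bar is the mean and the error bar the SD, cut off at 0 where it would go below. *Gja1* separates the groups (23.3 to 31.0 against 126.9 to 143.1 CPM), *Gjc1* does so in 5 of 6 *Neuid* KD libraries, and the panels of *Gjd2*, *Panx1* and *Panx2* overlap.

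The change moved *Gja1* from an intermediate to a high level. By CPM it stood above 71.0% of tested genes in control and above 93.0% in *Neuid* KD libraries, and its gain of 105.3 CPM ranked 49. Among the reads of the 20 connexin genes in the table, *Gja1* took 40.3% ± 4.71 in control (32.7% to 45.2%) and 77.4% ± 1.51 in *Neuid* KD libraries (75.5% to 79.3%). The summed level of the connexins went from 68.5 ± 4.76 to 171.6 ± 6.16 CPM, whereas without *Gja1* the sums were 41.0 ± 5.47 CPM for control and 38.8 ± 2.69 CPM for *Neuid* KD. The libraries with background at or above 100 CPM gave *Gja1* levels of 23.3 to 28.9 CPM (control) and 126.9 to 143.1 CPM (*Neuid* KD), and those under 100 CPM gave 27.2 to 31.0 CPM and 128.3 to 135.2 CPM.

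*Gjb6* (ENSMUSG00000040055, chr14:57123303-57133611, minus strand), which encodes connexin 30, the second astrocyte connexin, was found in few reads. Control libraries held 0 to 6 reads (12 in all, in 5 of 6 libraries), and *Neuid* KD libraries held 4 to 12 reads (45 in all). As levels these were 0 to 0.278 CPM in control (median 0.0484, mean 0.0894 ± 0.102) and 0.194 to 1.01 CPM in *Neuid* KD (median 0.292, mean 0.401 ± 0.313). In *Neuid* KD, 3 libraries were above the highest control library and 3 were within the control range. Pooled over libraries, the *Neuid* KD level was 3.95 times the control level (exact 95% interval 2.05 to 8.20, counting error only). A two-sided exact permutation test of the CPM, chosen after the counts were seen, gave p = 0.0130. In a fit of all 48419 genes with any read, the log2 fold change of *Gjb6* was 2.10 (SE 0.917, adjusted p = 0.502), where 1.47% of genes passed as higher. The *Neuid* KD libraries held more reads on both sides of 100 CPM of background. In the libraries under 100 CPM of background the 2 control libraries held 1 read and the 3 *Neuid* KD libraries 19 (ratio 12.9, interval 2.06 to 538), and in the others the counts were 11 and 26 (ratio 3.69, interval 1.76 to 8.28).

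*Gjb2* (ENSMUSG00000046352, chr14:57098600-57104702, minus strand), which encodes connexin 26, was likewise rare and showed no difference detectable at this depth. It held 0 to 20 reads in control libraries (36 in all) and 2 to 9 in *Neuid* KD libraries (35 in all). The levels were 0 to 0.854 CPM (median 0.161) and 0.0820 to 0.758 CPM (median 0.245), so the groups overlapped over most of their range. The pooled ratio was 1.02 (exact 95% interval 0.624 to 1.68, counting error only; exact permutation p = 0.751). The direction depended on the libraries: those under 100 CPM of background held 2 control and 20 *Neuid* KD reads (ratio 6.81, interval 1.66 to 60.1), and the others 34 and 15 (ratio 0.689, interval 0.349 to 1.30).

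*Gjb2* and *Gjb6* lie 18.6 kb apart, with *Gm4491*, which was not tested, annotated between them. The lens connexin *Gja3* lies 40.5 kb beyond *Gjb2*. Of the tested neighbours of *Gjb2* and *Gjb6*, 1 passed. Within 500 kb of *Gjb6* there were 31 annotated genes, of which 15 were tested and 1 passed, *Zmym2*, a zinc finger gene 160.6 kb away that rose from 90.3 to 114.8 CPM (log2 fold change 0.35, SE 0.0614, adjusted p = 9.68e-04). The same 15 genes are the tested neighbours of *Gjb2*, and of all tested genes 8.72% passed. For *Gja3* the log2 fold change was -0.76 (adjusted p = 0.357) and for *Cryl1* -0.35 (adjusted p = 0.0824), and the remaining tested neighbours, *Parp4*, *Gm4032*, *Mphosph8*, *Gm16973*, *Pspc1*, *Zmym5*, *2410022M11Rik*, *Gm8983*, *Ift88*, *Il17d*, *Eef1akmt1* and *Xpo4*, lay between -0.24 and 0.10. Around *Gja1*, 9 genes were annotated within 500 kb, and the 2 tested ones, *Tbc1d32* (log2 fold change -0.10, adjusted p = 0.445) and *Msl3l2* (-0.12, adjusted p = 0.803), did not pass.

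*Gjc1* (ENSMUSG00000034520, chr11:102799579-102819700, minus strand), which encodes connexin 45, had a higher mean in *Neuid* KD without passing. Control libraries lay between 10.8 and 13.5 CPM (median 11.8) and *Neuid* KD libraries between 11.0 and 15.7 CPM (median 14.4). In *Neuid* KD, 5 of the 6 libraries were above the highest control library. The exception was replicate 1, the shallowest library and the highest in background of that group (604 CPM). The means were 11.9 ± 0.955 and 14.1 ± 1.69 CPM, and the log2 fold change was 0.25 (SE 0.0801, 95% interval 0.08 to 0.42, adjusted p = 0.0708). The difference passed when *Neuid* KD replicate 1 was left out (log2 fold change 0.26, adjusted p = 0.0224) or control replicate 3 was left out (0.29, adjusted p = 0.0360), with DESeq2 (0.23, adjusted p = 0.0333) and with background reads as a covariate (0.23, adjusted p = 0.0482).

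*Gjd2* (ENSMUSG00000068615, chr2:114009601-114013619, minus strand), which encodes connexin 36, the channel of electrical synapses between neurons, did not pass. Its control libraries lay between 17.0 and 20.7 CPM (median 18.2) and its *Neuid* KD libraries between 14.5 and 19.1 CPM (median 16.8). In *Neuid* KD, 3 libraries were below the lowest control library and the others were within the control range. The log2 fold change was -0.13 (SE 0.0688, 95% interval -0.27 to 0.02, adjusted p = 0.372), an interval that leaves out a fall as large as the rise of *Gja1*. The gene shares its locus with *A530058N18Rik* on the opposite strand, so that without strand in the counting reads of the pair cannot be told apart.

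*Gjc1* and *Gjd2* were compared within each library, which needs no scaling between libraries. The log2 ratio of the CPM of *Gjc1* to that of *Gjd2*, which is not corrected for length and so does not rank the genes, was -0.62 ± 0.0683 in control and -0.25 ± 0.119 in *Neuid* KD libraries. The groups did not overlap and differed by 0.36 (two-sided exact permutation p = 0.00217, the smallest that 6 against 6 libraries can give; 0.00433 after adjustment over the 2 ratios that could be computed of 4 planned, the pairs with *Gjb6* having a library with 0 reads). Within the libraries at or above 100 CPM of background the difference was 0.28 and within the others 0.48; these subsets of 4 against 3 and 2 against 3 libraries cannot give an exact p under 0.0571 and 0.2, and gave those values.

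**Figure D2:**
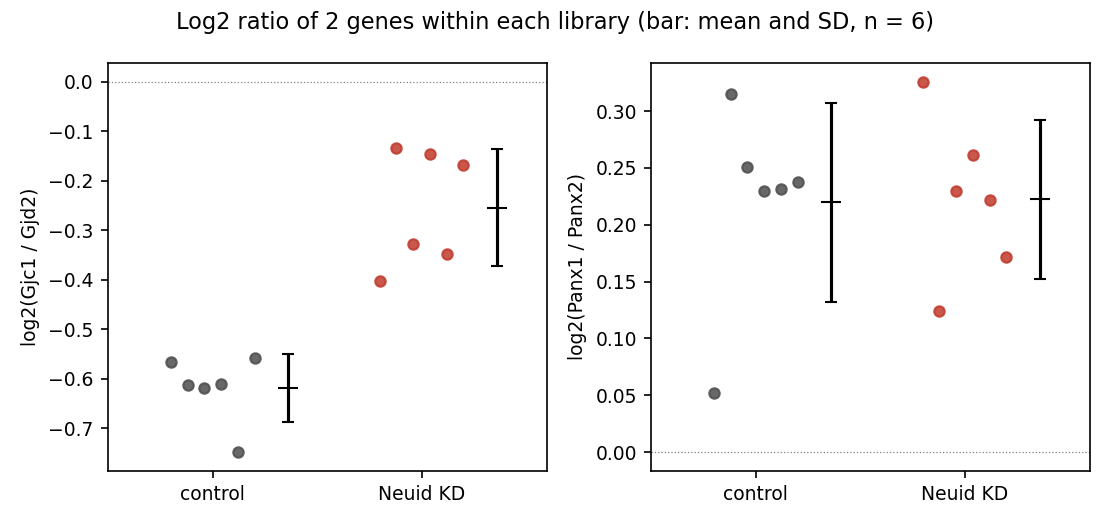
Log2 ratio of 2 genes within each library for control (grey) and *Neuid* KD (red) libraries, with the mean and SD (n = 6); the dotted line at 0 marks equal CPM. The ratio of *Gjc1* to *Gjd2* (left) lies at -0.62 ± 0.0683 in control and -0.25 ± 0.119 in *Neuid* KD, without overlap, and the ratio of *Panx1* to *Panx2* (right) lies at 0.22 in both.

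The pannexins varied little between libraries and neither passed. *Panx1* (ENSMUSG00000031934, chr9:15002128-15045478, minus strand) lay between 53.5 and 63.7 CPM in control (median 59.2), and the *Neuid* KD libraries ran from 51.6 to 59.1 CPM (median 55.6), where 1 library was below the control range. Its log2 fold change was -0.10 (SE 0.0518, 95% interval -0.21 to 0.01, adjusted p = 0.358). *Panx2* (ENSMUSG00000058441, chr15:89059734-89073567, plus strand), which shares its locus with 1810021B22Rik on the opposite strand, lay between 47.1 and 54.0 CPM in control (median 51.3), and the *Neuid* KD libraries ran from 41.2 to 50.5 CPM (median 48.7). The library at 41.2 CPM was again replicate 1, and the other 5 were within the control range. Its log2 fold change was -0.09 (SE 0.0534, 95% interval -0.21 to 0.02, adjusted p = 0.399). The log2 ratio of *Panx1* to *Panx2* was 0.22 ± 0.0879 in control and 0.22 ± 0.0701 in *Neuid* KD libraries, a difference of 0.0027 that is smaller than the spread between libraries (exact permutation p = 0.931).

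The calls of these 3 genes depended on the scaling. With upper-quartile normalization in place of TMM, which moved the median log2 fold change of all tested genes from -0.03 to -0.09, *Gjd2* (log2 fold change -0.19, adjusted p = 0.0483), *Panx1* (-0.16, adjusted p = 0.00684) and *Panx2* (-0.15, adjusted p = 0.0182) passed as lower, where 6.43% of all tested genes did.

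**Figure D3:**
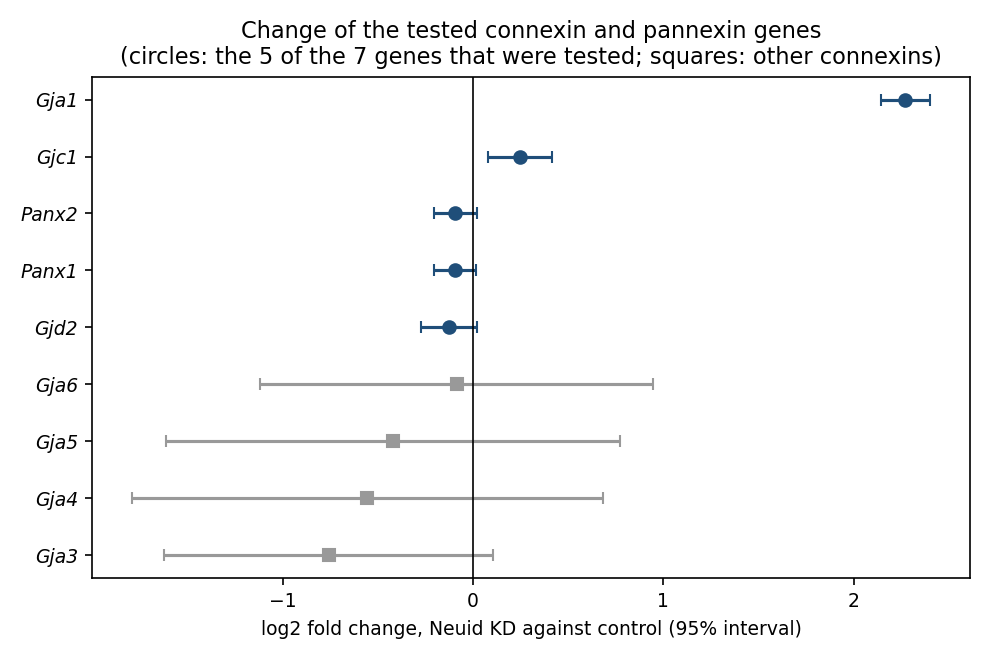
Log2 fold change of *Neuid* KD against control with its 95% interval for the tested connexin and pannexin genes; circles are the 5 tested genes of the 7 described and squares are 4 other connexins. *Gja1* (2.27) lies apart, *Gjc1* (0.25) has an interval above 0 before adjustment, and the intervals of the other genes cross 0 and are wide for the 4 rarely detected connexins.

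Levels of different genes can be compared only per length, here as CPM per kb of the principal transcript. In control libraries the order was *Panx2* (15.0 ± 0.751), *Panx1* (10.4 ± 0.661), *Gja1* (8.64 ± 0.795), *Gjd2* (6.35 ± 0.467), *Gjc1* (5.15 ± 0.413), *Gjb2* (0.111 ± 0.130) and *Gjb6* (0.0425 ± 0.0483). The ranges over libraries met between *Panx1* and *Gja1* (lowest *Panx1* 9.33, highest *Gja1* 9.74) and between *Gjb2* and *Gjb6*, and no other neighbours in that order overlapped. In *Neuid* KD libraries *Gja1* came first at 41.7 ± 1.83 CPM per kb, followed by *Panx2* (14.1 ± 0.978), *Panx1* (9.69 ± 0.468), *Gjc1* (6.07 ± 0.728), *Gjd2* (5.81 ± 0.554), *Gjb6* (0.191 ± 0.149) and *Gjb2* (0.128 ± 0.0989), and the ranges of *Gjc1* and *Gjd2* and those of *Gjb6* and *Gjb2* overlapped. The place of *Gja1* depended on the length used, since its principal transcript has 3182 nt and the union of its annotated exons 10257 nt. By the union, a definition added after the data were seen, *Gja1* was at 2.68 ± 0.246 CPM per kb in control and 12.9 ± 0.568 in *Neuid* KD, where *Panx2* was at 13.2 ± 0.922.

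The rest of the family stayed low. Of 16 other connexin and pannexin genes, 7 were tested (*Gja3*, *Gja4*, *Gja5* and *Gja6* among them), 9 were not, and none of the 7 passed. At an unadjusted p under 0.05 there were 0 in edgeR as reported. There was 1 in DESeq2, with background reads as a covariate and with 1 RUVs factor. Leaving out control replicate 5, *Neuid* KD replicate 1 or *Neuid* KD replicate 6 also gave 1. The smallest adjusted p was 0.357 as reported and 0.0917 with the covariate, the lowest of the settings tried. No library held more than 4.75 CPM of any of the 16. Of those named, the log2 fold changes ran from -0.76 (*Gja3*) to -0.09 (*Gja6*), and the 7 had a median of -0.71 beside -0.03 for all tested genes. These genes moved with background: at or above 100 CPM of background their summed level was 8.18 to 19.5 CPM over control and 9.31 to 15.2 CPM over *Neuid* KD libraries, and in the other libraries it was 4.03 to 4.30 and 3.18 to 3.80 CPM. The median log2 fold change was -0.44 with background reads as a covariate, -0.31 with 1 RUVs factor (a factor of unwanted variation), -0.51 in the libraries at or above 100 CPM of background and -0.28 in those under it, and none of the genes passed in these fits. Leaving out control replicate 1 moved it to -0.37, *Neuid* KD replicate 4 to -0.47 and *Neuid* KD replicate 1 to -0.96.

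The markers of astrocytes, the cells known for connexin 43, moved with *Gja1*. All 15 astrocyte markers passed as higher, as 6.31% of all tested genes did. Their median log2 fold change was 1.25, beside -0.03 for all tested genes. Their summed level went from 1982 to 2477 CPM in control to 3888 to 4621 CPM in *Neuid* KD libraries. Among them, the glutamate transporters *Slc1a2* and *Slc1a3* rose by 0.63 and 1.25 on the log2 scale (adjusted p = 1.84e-05 and 6.69e-10), the water channel *Aqp4* rose from 32.6 ± 4.28 to 140.4 ± 15.2 CPM, and *Gfap* rose from 139.8 ± 8.22 to 209.8 ± 5.58 CPM. Set against the summed list, *Gja1* was at 12.0 ± 0.460 CPM per 1000 CPM of the 15 markers in control (11.3 to 12.5) and 30.6 ± 1.89 in *Neuid* KD libraries (28.9 to 33.7), again without overlap. This sum is weighted by abundance, and *Slc1a2* was its largest part (group means of 1185 and 1834 CPM). The ratio thus compares *Gja1* largely with *Slc1a2* and does not measure *Gja1* per astrocyte. *Slc1a2* rose by less than the median marker (0.63 against 1.25 on the log2 scale), which makes the rise of the ratio larger. Of the single markers *S100b* (log2 fold change 2.64) was above the 2.27 of *Gja1*, and the other 14 were below it, from *Aqp4* (2.10) and *Acsbg1* (2.06) to *Clu* (0.35).

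**Figure D4:**
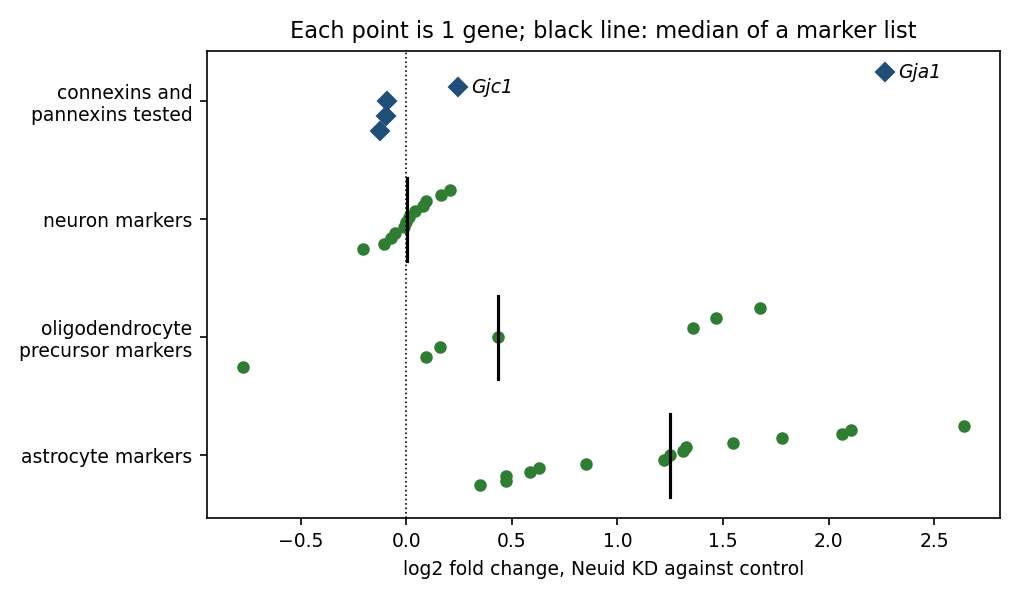
Log2 fold change of *Neuid* KD against control for each tested gene of the marker lists of astrocytes, oligodendrocyte precursors and neurons (green points, black line at the list's median) and for the 5 tested connexin and pannexin genes (blue diamonds). The 15 astrocyte markers lie at or above 0.35 with a median of 1.25, the neuron markers lie around 0, and *Gja1* lies at 2.27.

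Markers of the other cell types were counted in the same way, beside 6.31% of all tested genes that passed as higher and 2.42% as lower. Of 7 oligodendrocyte precursor markers 3 rose, *Olig1* (log2 fold change 1.47), *Olig2* (1.67) and *Ptprz1* (1.36). *Pdgfra*, which defines these cells, was at 6.69 ± 1.33 and 9.17 ± 3.27 CPM (adjusted p = 0.223). *Cspg4*, *Sox10* and *Gpr17* did not pass either, and the median log2 fold change of the list was 0.44. The summed level of the list went from 454.0 to 611.9 CPM up to 1246 to 1463 CPM. *Ptprz1* made up most of this sum (group means of 427.9 and 1096 CPM). The sum thus mainly follows *Ptprz1* and does not measure a rise shared by the precursor markers. Of 12 neuron markers, *Nefm* rose by 0.21 and *Elavl4* fell by 0.21 on the log2 scale, and the sums of the list overlapped (6876 to 8077 CPM against 6778 to 8115 CPM). *Mbp* was the only one of the myelinating oligodendrocyte markers to change (5 of 8 tested, log2 fold change -0.66, adjusted p = 9.73e-04). No tested marker passed among microglia (5 of 8 tested), fibroblasts and leptomeningeal cells (8 of 10), endothelial cells (5 of 7), ependymal cells (3 of 5), cycling cells (6 of 6) or inhibitory neurons (7 of 8). The summed levels of these 6 lists overlapped between the groups, at 14.4 to 21.8 and 12.7 to 20.6 CPM for microglia and 37.3 to 68.3 and 37.1 to 56.5 CPM for fibroblasts and leptomeningeal cells. The part of astrocytes, or of any other cell type, in the change of *Gja1* was not tested.

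Among the genes whose log2 CPM followed that of *Gja1* most closely over the 12 libraries were *Pla2g7*, a phospholipase (Pearson r = 0.999), and *Bcan*, a brain proteoglycan (r = 0.998). These values describe the points, which fall into the groups of the study. *Pla2g7* went from 27.7 ± 2.62 to 161.4 ± 13.7 CPM and *Bcan* from 55.0 ± 3.14 to 202.0 ± 17.9 CPM.

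Genes that anchor or regulate gap junctions changed in part. Of 22 scaffolds and regulators, all tested, 5 rose (8 with DESeq2) and 2 fell, with a median log2 fold change of 0.11. Over all tested genes 6.31% passed as higher and 2.42% as lower. The adhesion protein *Ctnna1* rose from 32.3 ± 2.49 to 47.9 ± 2.24 CPM (log2 fold change 0.57, adjusted p = 1.35e-06), the multi-PDZ scaffold *Mpdz* rose by 0.43 (adjusted p = 3.50e-05), and the kinase *Camk2a*, which binds connexin 36, rose by 0.38 on the log2 scale (adjusted p = 2.16e-04). *Cav1*, the coat protein of caveolae, fell from 10.9 ± 1.64 to 6.11 ± 0.444 CPM (log2 fold change -0.84, adjusted p = 1.04e-05). Among the smaller changes were a rise of the connexin 43 anchor *Tjp1* (0.26, adjusted p = 0.00399) and a fall of the kinase *Mapk3* (log2 fold change -0.18, adjusted p = 0.0436); *Tjp1* and *Mapk3* were named after their values were seen.

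Receptors and enzymes for the ATP and adenosine that such channels release were mostly rare. Of 23 genes 17 were tested and 1 rose (3 with background reads as a covariate), where 6.31% of all tested genes passed as higher. The median log2 fold change of the list was -0.09. *Adora2b*, a receptor for adenosine, rose from 0.948 ± 0.333 to 4.03 ± 0.330 CPM (log2 fold change 2.09, SE 0.240, adjusted p = 1.02e-05). The control libraries lay between 0.371 and 1.29 CPM and the *Neuid* KD ones between 3.74 and 4.55 CPM, so the groups did not overlap. The other 16, the P2X and P2Y receptors among them, did not pass.

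Among 14 genes of other large-pore channels, 12 were tested and 3 rose, all of the tweety family, where 6.31% of all tested genes passed as higher. The median log2 fold change of the list was -0.01. *Ttyh2* rose from 5.73 ± 0.623 to 12.8 ± 1.36 CPM (log2 fold change 1.17, adjusted p = 7.19e-08), *Ttyh3* by 0.50 (adjusted p = 2.36e-05) and *Ttyh1* by 0.46 on the log2 scale (adjusted p = 7.99e-06). The 5 *Lrrc8* genes of the volume-regulated anion channel did not pass.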

How the data were processed

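The 12 libraries were prepared by the authors from total RNA with a stranded low-input kit (SMARTer Pico) and sequenced as single reads; per the submitters' processing notes bcl2fastq, STAR and the mm10 (GRCm38) genome were used, and the study's methods name featureCounts. The deposited values are raw read counts per Ensembl gene and library (no normalization); 0 columns or rows lacked a sample. The strand setting is not given in the sources used here. Samples were grouped by the titles in the labels, 6 control and 6 *Neuid* KD.

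The counts were tested with edgeR 4.0.16 under R 4.3.3 (filterByExpr, TMM, quasi-likelihood test, group only, Benjamini-Hochberg over 19578 genes of 55471; the code was tested on simulated data), with DESeq2 1.42.0, and with exact permutation tests in scipy 1.17.1 (two-sided, all 924 arrangements). Within a group, library log2 CPM correlated at 0.942 to 0.988, so no library was counted as a copy of another. Positions and lengths came from GENCODE vM21, promoters from RefSeq. Intervals of pooled read ratios are exact and cover counting error only; PCR duplicates were not removed by molecular identifiers. Totals of 11152556 to 30914714 reads set the precision: 3 reads over the control libraries equal 0.0217 CPM.

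The 7 genes and all lists were chosen with earlier results of these data known. Named genes were the 7 genes, *Neuid*, the tested other connexins, up to 4 genes with the smallest adjusted p of each pathway list, tested neighbours, the 3 genes most correlated with a member that passed, and the 3 most abundant genes of each marker list; other markers were named for their role, and some genes these rules chose are not reported here. The permutation tests of *Gjb6* and *Gjb2* were chosen after the counts were seen. Alternatives were upper-quartile and DESeq2 scaling, DESeq2, no filter, 1 RUVs factor, background reads as a covariate or a split at 100 CPM, a replicate block and leaving out each library.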

Additional observations from a re-analysis of the deposited data

Results flagged for a closer look

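In 21 of 156 groups of 6 libraries checked, those of the tested genes that the naming rule chose or that are given with values, of *Gjb6* and *Gjb2* and of the 2 within-library ratios, the highest or lowest library stood apart from the other 5 by more than Dixon's test allows at 95% (chance does this in about 1 group in 20). *Neuid* KD replicate 1 was the library concerned in 11 of them. It was the shallowest library and had the highest background of the *Neuid* KD group (604 CPM). Of the 7 genes described it was high for *Gjb6* (1.01 CPM against 0.194 to 0.410 CPM in the other *Neuid* KD libraries) and low for *Panx2* (41.2 CPM against 47.7 to 50.5 CPM in the others). It was also low for *Ttyh1* (220.0 CPM against 227.9 to 232.2), *Ttyh3* (326.5 against 390.3 to 418.2), *Slc1a2* (1425 against 1825 to 2004), *Map2* (2106 against 2594 to 2790), *Tjp1* (124.1 against 135.8 to 142.0) and *Tbc1d32* (19.5 against 23.3 to 25.5), and high for *Flt1* (5.14 against 0.374 to 2.09), *Ccdc153* (2.02 against 0 to 0.523) and *Gm4032* (1.35 against 0.205 to 0.471).

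Among the other connexins, *Gja6* was at 1.15 CPM in *Neuid* KD replicate 5 against 0.337 to 0.628 CPM in the others. The same library was low for *Dcn* (18.7 CPM against 21.0 to 22.0) and *Foxc1* (4.55 against 5.39 to 5.60). *Neuid* KD replicate 6 was high for *Bcan* (237.2 CPM against 185.3 to 198.6) and *Mbp* (6.75 against 4.51 to 5.15) and low for *Mapk3* (60.5 against 69.1 to 71.8) and *Clu* (45.9 against 51.1 to 53.9). In control libraries, replicate 4 was high for *Foxc1* (7.38 CPM against 3.61 to 4.80). Of the within-library ratios, the log2 ratio of *Gjc1* to *Gjd2* was -0.75 in control replicate 5 against -0.62 to -0.56 in the other control libraries, and that of *Panx1* to *Panx2* was 0.0525 in control replicate 1 against 0.23 to 0.32.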

How the results depend on the processing

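*Gja1* kept its direction and passed under all 21 alternatives, with log2 fold changes from 2.15 (libraries under 100 CPM of background) to 2.34 (libraries at or above it) and from 2.22 to 2.31 when each library was left out; *Neuid* did so too, from -1.93 to -1.73. *Gjc1* passed with DESeq2 (0.23, adjusted p = 0.0333) and with background reads as a covariate (0.23, adjusted p = 0.0482), and ran from 0.20 to 0.29 when each library was left out (adjusted p from 0.0224 without *Neuid* KD replicate 1 to 0.299), so that 1 to 2 of the genes passed as higher under these fits and 2 with DESeq2 and with the covariate. Upper-quartile normalization gave 3 genes that passed as lower, *Gjd2* (-0.19), *Panx1* (-0.16) and *Panx2* (-0.15), and 1 large-pore channel gene that passed as lower. The balance of calls over all genes also changed between fits, and 72.3% of the calls were higher in the reported fit (1235 of 1708). With other scaling in edgeR it was 45.5% (upper-quartile) and 65.7% (DESeq2 size factors), and with DESeq2 it was 59.8%. Fits on fewer libraries with TMM gave 58.4% under 100 CPM of background and 76.6% at or above it. They gave 60.8% and 61.4% without *Neuid* KD replicate 1 and replicate 6. The scaffolds that passed as higher were 8 with DESeq2, with 1 RUVs factor, with the covariate and with the replicate block, and 2 with no filter on low counts (5 as reported); those that passed as lower were 1 with no filter, in libraries at or above 100 CPM of background and with the block (2 as reported). The ATP and adenosine genes that passed as higher were 2 with 1 RUVs factor and 3 with the covariate (1 as reported). The genes that passed as higher were 711 with no filter and 1775 with the covariate, and those that passed as lower were 229 and 987, against 1235 and 473; for none of these shifts was the cause tested. The difference in the log2 ratio of *Gjc1* to *Gjd2* was 0.28 and 0.48 at or above and under 100 CPM of background (exact p = 0.0571 and 0.2, the smallest these subsets allow). That of *Panx1* to *Panx2* (0.0027) reversed under 100 CPM (-0.0363) and without control replicate 1 (-0.0307), *Neuid* KD replicate 1 (-0.0180) or replicate 4 (-0.0051), over a leave-one-out range of -0.0307 to 0.0224. The *Gjb6* difference was 0.417 CPM at or above (exact p = 0.114) and 0.243 CPM under 100 CPM of background (exact p = 0.2, the smallest possible), and 0.190 to 0.353 CPM with 1 library left out (exact p = 0.00433 to 0.0260). The *Gjb2* difference reversed at or above 100 CPM (-0.0345) and without control replicate 5 (-0.0117) or *Neuid* KD replicate 1 (-0.0480), over a range of -0.0480 to 0.159 CPM. The deviations of same-numbered libraries from their group means correlated at r = 0.774, -0.454, 0.751, -0.637, -0.552 and 0.0037 for numbers 1 to 6. Background also differed between libraries, so these values cannot show whether the numbers pair the libraries. The replicate block gave 1299 higher and 542 lower genes. With it the log2 fold changes were *Gja1* 2.27, *Gjc1* 0.24 (adjusted p = 0.0596 in edgeR), *Gjd2* -0.13, *Panx1* -0.10, *Panx2* -0.09 and *Neuid* -1.82. It changed no call of these genes. Depth limits *Gjb6* and *Gjb2*, for which a control level under 0.0217 CPM corresponds to fewer than 3 reads.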
